A study of Caenorhabditis elegans with 12 samples.

Results

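The let-7 U18A mutant of Caenorhabditis elegans, genotype maIs105;let-7(ma435), was set against the maIs105 strain that served as its control. Each strain had 3 ribosome profiling libraries, so 6 of the study's 12 libraries were compared. Libraries were chosen by strain label alone, and every gene of the count table was then described by its family. Whole animals of both strains were harvested at the mid-L4 stage, 45 hours after feeding began, at 20 °C. U18A names a U-to-A change at position 18 of the let-7 microRNA, outside the seed. Both strains carry maIs105, an integrated reporter that joins the promoter of the cuticle collagen gene col-19 to GFP, so the let-7 allele is the labelled difference between them. The study's other pair is a let-7 U13A mutant with the genotype lin-41(tn1541ma480);let-7(ma432) and its lin-41(tn1541) control. It is used here only to ask whether a change differed between the 2 pairs. The pairs also differ in background strain and lin-41 allele, so a difference cannot be assigned to the let-7 alleles.

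let-7 is a microRNA that accumulates late in larval life and, by repressing lin-41, lets the skin cells of the worm pass from larval to adult programs at the last molt. At each molt the epidermis secretes a transient precuticle, then collagens and other matrix proteins in timed waves, and sheds the old cuticle. In the same window the hermaphrodite germline turns from making sperm to making oocytes, and the intestine begins to produce yolk for them.

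Ribosome profiling counts the mRNA fragments that ribosomes shield from nuclease, so a gene's footprint count follows both its mRNA level and its translation, and the 2 were not separated here. In whole animals, fewer cells of a type and less RNA per cell cannot be told apart. Footprint totals were 9447942, 13500599 and 17453345 in mutant libraries A, B and C, against 21138669, 44950649 and 31279059 in the control libraries, so every mutant library was shallower than every control. Levels are given as CPM, footprint counts scaled to a common library size, in the order A, B, C. Nothing in the labels says that the libraries came from separate cultures, so p-values measure the spread between these samples, which may be technical. The row for let-7 held 0 counts in all 6 libraries, which allows up to 0.318 CPM in the shallowest. Counts per gene hold no base sequence, so the mutation could not be checked from them at any depth.

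Of 13614 genes tested, 559 were higher and 919 were lower in the U18A mutant at an adjusted p under 0.05 by edgeR's quasi-likelihood test. These are 4.11% and 6.75% of the genes, and the family counts below are to be read beside these shares. A change of at least 1 on the log2 scale was reached by 350 of the called genes, 94 higher and 256 lower. The median log2 fold change over all genes tested was -0.005. Cuticle and molting families lay mainly among the lower genes, and yolk, eggshell and oocyte families among the higher ones. The lowest and highest counts seen when 1 library was left out were 347 and 627 genes higher, and 570 and 1001 genes lower.

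**Figure D1:**
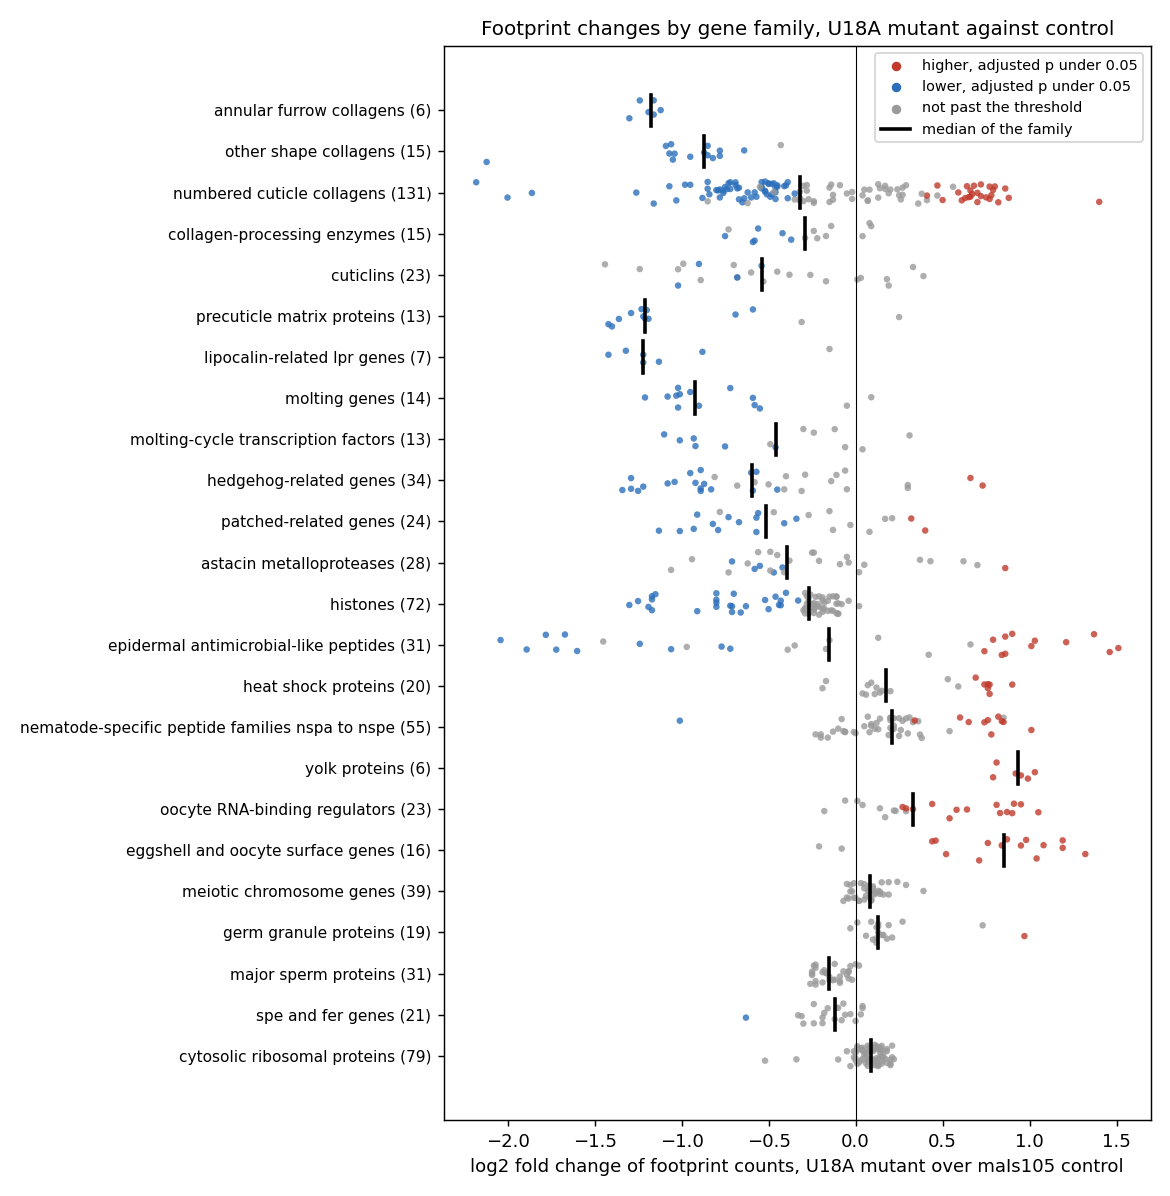
Log2 fold change of footprint counts, U18A mutant over maIs105 control, for each tested member of 24 gene families, 1 point per gene, with the number tested in parentheses. The 6 furrow collagens lie between -1.3 and -1.12 and the 6 yolk genes between 0.79 and 1.03, while the meiotic, sperm and ribosomal families gather near 0.

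The collagens that build the ring-shaped furrows of the cuticle fell together. All 6 members, dpy-2, dpy-3, dpy-7, dpy-8, dpy-9 and dpy-10, were lower, against 6.75% of all genes. dpy-7, required for body shape and placed on chromosome X at 7536467 to 7537792 (WBcel235), had 6.56, 7.43 and 9.11 CPM in the mutant libraries, against 24.9, 17.1 and 16.7 CPM in the controls. The groups did not overlap, and the log2 fold change was -1.3 (SE 0.17, edgeR adjusted p = 0.000197). Summed over the 6 genes, the mutants had 71.3, 66.1 and 80 CPM and the controls 206, 156 and 139 CPM, a ratio of means of 0.433. The 6 changes were alike in size, between -1.3 for dpy-7 and -1.12 for dpy-2. dpy-10 shares its strand with the overlapping gene T14B4.19, and how reads in the overlap were assigned is not given in the sources used here.

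Of 15 tested collagens known from body shape, blister and roller mutants, 14 were lower, with a median log2 fold change of -0.87. sqt-3, a collagen whose mutants are squat, had 198, 200 and 275 CPM in the mutants, against 532, 486 and 420 CPM in the controls, a change of -1.09 (SE 0.12, edgeR adjusted p = 8.56e-05). bli-1 and bli-2, which form the struts that join the layers of the adult cuticle, had changes of -1.06 (SE 0.10) and -1.07 (SE 0.09). dpy-4, the most abundant of the 15, had 703, 639 and 706 CPM, against 1350, 1240 and 1110 CPM. dpy-1, a gene known from its dumpy mutants and kept in this list, changed most: 1.22, 1.05 and 1.92 CPM in the mutants and 8.31, 5.83 and 5.30 CPM in the controls, a change of -2.12 (SE 0.25). dpy-17 was the member that did not pass the test, at -0.43.

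The precuticle is the matrix laid over the epidermis before collagen is deposited, and 11 of 13 tested precuticle genes were lower, with a median of -1.21. lpr-3, a secreted lipocalin of this matrix on chromosome X at 11057401 to 11059793, had 43.9, 41.3 and 44.6 CPM in the mutants, against 159, 102 and 88.9 CPM in the controls. Its change was -1.42 (SE 0.17, edgeR adjusted p = 0.000101). The zona pellucida protein noah-2 had 60.1, 59.6 and 55.8 CPM, against 195, 123 and 112 CPM, a change of -1.29 (SE 0.16). For both genes the 3 mutant libraries were close together and the controls spread widely, with control A highest. fbn-1, a fibrillin-like protein, changed by -1.36 (SE 0.17) and let-4, a leucine-rich repeat protein of epithelial matrix, by -1.40 (SE 0.20). egg-6 and dex-1 did not pass the test, at 0.25 and -0.31. Among the 7 lipocalin-related lpr genes, 6 were lower, lpr-2 being the exception at -0.15. Their summed level was 106, 102 and 105 CPM in the mutants and 340, 225 and 200 CPM in the controls. lpr-3 and lpr-1 belong to both lists. lpr-1 changed by -1.22, and its edgeR adjusted p was 0.0983 without mutant library B.

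Genes needed to shed the old cuticle followed the same direction: 12 of 14 molting genes were lower, with a median of -0.92. mlt-11, a protease inhibitor of the cuticle and the most abundant precuticle gene, averaged 126 ± 3.73 CPM in the mutants and 292 ± 75 CPM in the controls (SD, n = 3 each), with no overlap, a change of -1.21 (SE 0.13, edgeR adjusted p = 7.99e-05). lrp-1, the endocytic receptor that takes up sterols in the epidermis, had 197, 181 and 158 CPM, against 328, 286 and 266 CPM, a change of -0.72 (SE 0.10). The hedgehog-related gene qua-1 changed by -1.08 (SE 0.09). The astacin proteases nas-36 and nas-37, which loosen the old cuticle, were lower by smaller amounts, at -0.55 (SE 0.08) and -0.58 (SE 0.13). wrt-5 and mlt-7, a peroxidase, did not pass the test, at -0.05 and 0.09.

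Of 13 transcription factors that cycle with or drive molting, 6 were lower and none higher, with a median of -0.46. The share lower was 46.2%, against 6.75% of all genes. lin-42, the worm's period homolog, averaged 10.9 ± 1.08 CPM in the mutants and 22.4 ± 2.6 CPM in the controls (SD, n = 3 each), with no overlap, a change of -1.01 (SE 0.12, edgeR adjusted p = 8.70e-05). grh-1, a grainyhead-type factor of the epidermis, changed by -0.92 (SE 0.17), bed-3 by -0.93 (SE 0.15) and blmp-1 by -0.75. nhr-25 changed by -1.10 (SE 0.27) at 0.89, 1.43 and 1.02 CPM, against 3.10, 1.97 and 2.39 CPM, and its edgeR adjusted p was 0.0599 without mutant library A and 0.0672 without mutant library C. nhr-23, the receptor that drives each molt, did not pass the test, at -0.06.

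**Figure D2:**
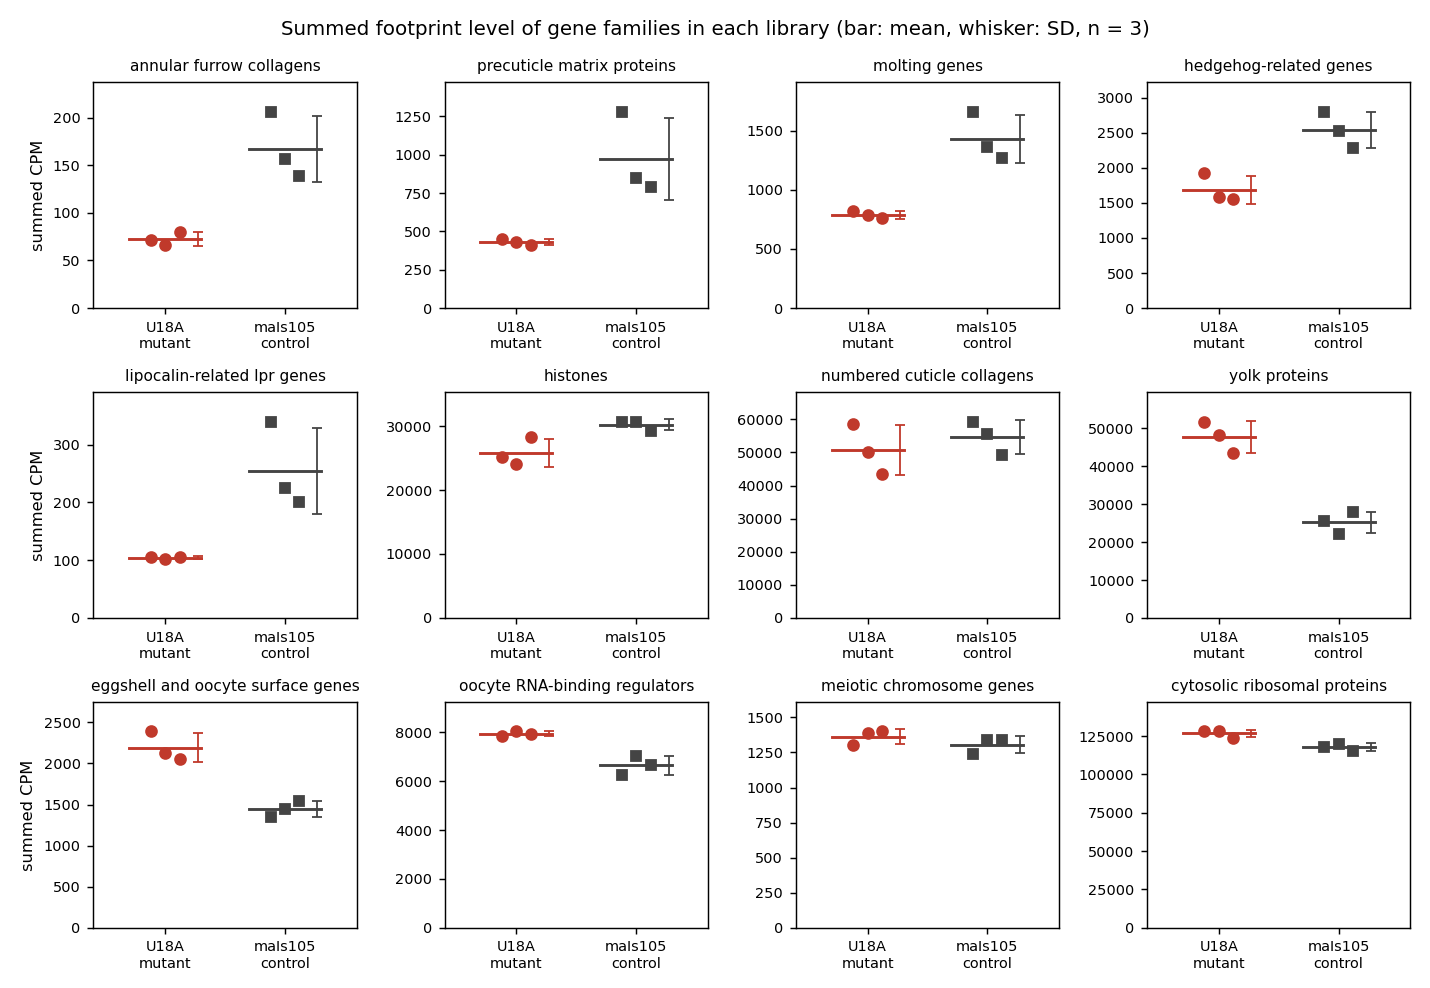
Summed CPM of 12 gene families in each library, with the mean as a horizontal line and the SD as a whisker (n = 3 per strain), U18A mutants left of maIs105 controls in every panel and all axes from 0. The precuticle genes summed to 448, 429 and 414 CPM in the mutants and 1280, 851 and 787 CPM in the controls, and the yolk genes show the opposite order.

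Hedgehog-related genes, secreted proteins that in worms act largely in the epidermis, were mainly lower: 18 of 34 fell and 2 rose, with a median of -0.59. wrt-2 had 11.3, 11.3 and 9.56 CPM in the mutants, against 33.8, 24.1 and 23.4 CPM in the controls, a change of -1.34 (SE 0.15, edgeR adjusted p = 7.61e-05). wrt-10, wrt-1 and grl-15 changed by -1.29, -1.25 and -1.29, and the groups did not overlap in any of the 3. The most abundant member, grl-16, had 831, 597 and 604 CPM, against 1060, 1060 and 944 CPM, a change of -0.60 (SE 0.11). grd-3 and grl-21 were the members that rose, at 0.73 and 0.66, and neither passed in a fit over all 12 libraries. Without mutant library B grd-3 had an edgeR adjusted p of 0.0505.

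Patched-related genes, membrane proteins with sterol-sensing domains, showed 13 of 24 lower, a count of 7 without mutant library B. The ptr class accounts for most of them, for example ptr-4, needed for molting, with 26.8, 26.6 and 33.8 CPM in the mutants and 70.1, 55.9 and 51.3 CPM in the controls (change -1.01, SE 0.12). ptc-1 and ptc-2 rose by 0.32 and 0.40. ptc-1, which acts in germline cytokinesis, had 168, 161 and 167 CPM, against 134, 134 and 128 CPM.

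Enzymes that fold and cross-link collagen were lower in smaller part: 6 of 15 passed the test, a count of 3 without mutant library B, control library A or control library B. phy-2 and dpy-18, subunits of prolyl 4-hydroxylase, changed by -0.75 (SE 0.10) and -0.58 (SE 0.09). pdi-2, the most abundant of the list, had 1380, 1140 and 1130 CPM in the mutants and 1810, 1490 and 1410 CPM in the controls. Its change was -0.37 (SE 0.10), with an edgeR adjusted p of 0.0378 that became 0.216 without mutant library B, 0.102 without mutant library C, 0.183 without control library A and 0.0632 without control library B. The fkb class, peptidyl-prolyl isomerases, had 4 of 8 lower. fkb-3, an isomerase of the secretory pathway, had 33.3, 42.5 and 40.3 CPM, against 83.7, 76.0 and 75.6 CPM (change -1.01, SE 0.09).

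Cuticlins, the insoluble proteins of the cuticle, had 4 of 23 lower, 17.4% against 6.75% of all genes. cut-2 had 237, 215 and 253 CPM in the mutants, against 558, 474 and 393 CPM in the controls, and made up most of the family's summed footprints. Astacin metalloproteases had 5 of 28 lower, or 17.9%, a count of 3 without mutant library B, control library A or control library B. nas-20 was the astacin that rose, at 0.86 (SE 0.17), and its edgeR adjusted p was 0.127 with no count filter. The abu and pqn proteins, many of which are secreted into the pharyngeal cuticle, had 3 of 71 higher and 5 lower, shares of 4.23% and 7.04%, close to those over all genes. pqn-32 changed by -1.09 (SE 0.12) and abu-13 by -1.0 (SE 0.12).

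The numbered col collagens, the large family that forms the bulk of the cuticle, did not move as one. Of those tested, 26 were higher, 58 lower and 47 past no threshold, so that 19.8% rose and 44.3% fell, against 4.11% and 6.75% of all genes. Their summed level overlapped between the groups, at 58600, 50200 and 43400 CPM in the mutants and 59300, 55500 and 49300 CPM in the controls. The 58 lower genes summed to 21800, 19100 and 19100 CPM in the mutants and 33400, 30900 and 26600 CPM in the controls. The 26 higher genes summed to 17200, 14800 and 10700 CPM in the mutants and 9180, 8750 and 8530 CPM in the controls. Since the genes of these sums were chosen by the test, the sums describe size only.

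Per kilobase of coding length, 20 of the 26 higher collagens lay between 223 and 776 CPM in the controls, with changes between 0.47 and 0.88, a band chosen after the values were seen. The same band held 14 lower collagens and 5 that did not pass the test, 39 in all. The higher ones in it include col-19, which marks adult epidermis, and col-7, col-62, col-119, col-129 and col-140. The 56 lower collagens with a known coding length spread widely, between 0.945 and 2820 CPM per kilobase. Among the 23 collagens over 1000 CPM per kilobase in the controls, 14 were lower and 9 did not pass the test.

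Single collagens show how far this went. col-8, on chromosome III at 7019583 to 7020600, had 102, 89.7 and 62.2 CPM in the mutants, against 30.4, 24.8 and 40.9 CPM in the controls, a change of 1.40 (SE 0.18, edgeR adjusted p = 0.000194). col-19 had 755, 701 and 510 CPM, against 402, 367 and 399 CPM, a change of 0.75 (SE 0.12). col-41, on chromosome X at 15175032 to 15176481, had 8.46, 8.49 and 12.9 CPM, against 60.9, 47.9 and 30.2 CPM, a change of -2.18 (SE 0.23). None of these 3 genes overlapped between groups. col-117, the most abundant, had 2140, 1730 and 1660 CPM, against 2850, 2520 and 2190 CPM, a change of -0.45 (SE 0.11), and its counts follow those of col-3 so closely that reads of the 2 copies cannot be told apart. Its edgeR adjusted p was 0.0160, and it was 0.122 without mutant library B, 0.0527 without mutant library C and 0.0912 without control library A. The number of higher collagens was 12 with no count filter and 1 in a fit over all 12 libraries; the number of lower ones was 26 in that fit and 35 without mutant library B. col-8 and col-19 themselves missed the threshold in 1 of these fits each, with edgeR adjusted p of 0.0602 with no count filter for col-8 and 0.214 over all 12 libraries for col-19. col-7 had an edgeR adjusted p of 0.0516 without mutant library A, and col-3 of 0.110 without mutant library B and 0.0803 without control library A.

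**Figure D3:**
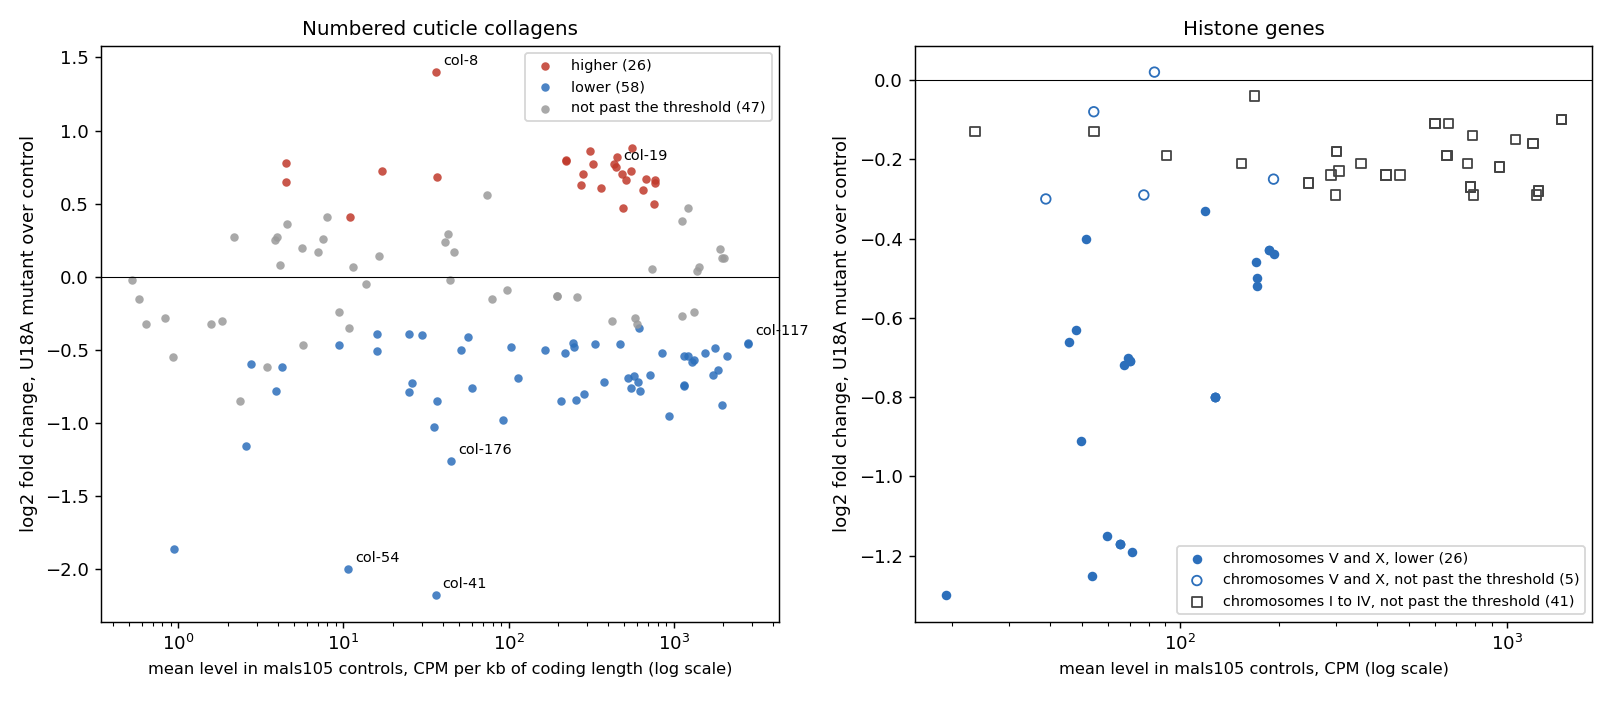
Log2 fold change, U18A mutant over maIs105 control, against the mean control level on a log axis, for the numbered collagens (left, CPM per kilobase of coding length) and 72 histone genes (right, CPM), 1 point per gene. Of the 26 higher collagens 20 lie at 223 to 776 CPM per kilobase, where 14 lower ones also lie, and the 26 histones called lower with all 6 libraries lie on chromosomes V and X at 193 CPM or less.

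Histone genes, many of which lie in clusters of the 4 core types, were called lower mainly on chromosomes V and X. Of 72 tested, 26 were lower, 36.1% against 6.75% of all genes, and 71 had a negative estimate. All 26 were on chromosome V (22 of 27) or X (4 of 4), while none of 41 on chromosomes I to IV passed edgeR's threshold. Over all genes, 8.18% on V and 10.1% on X were called lower. The division by chromosome was chosen after the values were seen, and it was not kept under every alternative. Without mutant library C 26 of 31 histones on V and X and 13 of 41 on I to IV were lower, and without control library C 27 and 13. The counts were 22 and 2 without mutant library A, 17 and 9 with no count filter, 28 and 6 with a replicate block, and 26 and 3 after thinning. In the remaining alternatives no histone on I to IV was called.

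The 31 histone genes of V and X summed to 1890, 1950 and 2260 CPM in the mutants, against 3160, 3200 and 2740 CPM in the controls, with a median change of -0.70. The 41 genes of I to IV summed to 23300, 22000 and 26000 CPM, against 27600, 27500 and 26500 CPM, with a median change of -0.21 and no overlap between groups in the sum. Level moved with position: the lower genes had control means of at most 193 CPM, and the 36 histone genes above that level, all on I, II or IV, were not called. his-39, on chromosome V at 8536513 to 8536716, had 6.23, 7.36 and 9.05 CPM, against 24.6, 20.5 and 12.5 CPM, a change of -1.3 (SE 0.22, edgeR adjusted p = 0.00120). his-4 on the same chromosome had 18.7, 22.5 and 25.6 CPM, against 63.2, 60.3 and 37.8 CPM, a change of -1.25 (SE 0.17). his-24, a linker histone on X, changed by -0.72, with an edgeR adjusted p of 0.0746 without mutant library A. Core histone copies are nearly identical, as in his-20, his-22 and his-52, whose counts match within 5% or 3 counts in every library, so the split of reads between copies is uncertain. With no count filter the edgeR adjusted p was 0.0782 for his-39, 0.0653 for his-22 and 0.136 for his-24. The number of lower histones was 40 without control library C, with 27 on V and X and 13 on I to IV.

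Yolk genes held the largest footprint totals among the families that rose as a whole. All 6 vitellogenins, the lipid carriers made in the intestine and taken up by oocytes, were higher, against 4.11% of all genes. Together they held 51800, 48300 and 43400 CPM in the mutants and 25500, 22200 and 27900 CPM in the controls, a ratio of means of 1.9. vit-2, on chromosome X at 5101042 to 5106169, had 9900, 9380 and 8320 CPM, against 4340, 4190 and 4940 CPM, a change of 1.03 (SE 0.09, edgeR adjusted p = 4.35e-05). vit-6, the single member off the X chromosome, had 13300, 12500 and 10700 CPM, against 6060, 5790 and 6600 CPM, a change of 0.99 (SE 0.09). The highest control library lay below the lowest mutant library for each of the 6. vit-3, vit-4 and vit-5 are close copies, and vit-3 and vit-4 had almost the same counts, so their changes of 0.79 and 0.81 are not independent.

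Genes for the oocyte surface and the eggshell rose with the yolk. Of 16 tested, 14 were higher, with a median of 0.85. cbd-1, a chitin-binding protein of the outer eggshell on chromosome IV at 11372991 to 11377627, had 217, 174 and 168 CPM in the mutants, against 59.0, 65.9 and 98.9 CPM in the controls, a change of 1.32 (SE 0.16, edgeR adjusted p = 0.000115). egg-1, a receptor that oocytes need for fertilization, had 34.7, 33.6 and 36.8 CPM, against 12.1, 12.9 and 21 CPM, a change of 1.19 (SE 0.16). The chitin synthase chs-1 changed by 1.19 (SE 0.13) and the eggshell proteoglycan cpg-1 by 1.08 (SE 0.13). chs-1 overlaps T25G3.3 on the same strand. The yolk receptor of oocytes, rme-2, was higher by 0.95. mbk-2 and pqn-74 did not pass the test, at -0.21 and -0.08. The most abundant member, perm-4, had 740, 714 and 670 CPM, against 496, 531 and 536 CPM, a change of 0.44 (SE 0.07).

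RNA-binding proteins that control maternal mRNAs in oocytes had 14 of 23 higher, with a median of 0.33. oma-2, which with oma-1 drives oocyte maturation, had 8.34, 8.33 and 9.73 CPM in the mutants, against 3.77, 3.64 and 5.43 CPM in the controls, a change of 1.05 (SE 0.17, edgeR adjusted p = 0.000760). oma-1 had 25.8, 22.2 and 22.5 CPM, against 10.7, 11.2 and 15.2 CPM, a change of 0.91 (SE 0.13). The PUF-family repressors puf-3, puf-5, puf-6, puf-7 and puf-11 were higher by 0.81 to 0.95. puf-3 had 52.5, 51.4 and 59.2 CPM, against 23.2, 30.3 and 35.6 CPM. Regulators of earlier germ cells or of the embryo in the same list, such as gld-1, pos-1 and spn-4, did not pass the test, at 0.14, 0.01 and -0.06. lin-41, itself a regulator of oocyte growth and the best known let-7 target, is in the list, at 124 ± 6.3 CPM in the mutants and 85.1 ± 8.92 CPM in the controls (SD, n = 3 each), with no overlap, a change of 0.54 (SE 0.08, edgeR adjusted p = 0.000770).

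Other germline families stayed near 0, and their counts stand beside 4.11% higher and 6.75% lower over all genes. None of 39 meiotic chromosome genes passed edgeR's threshold (3 had an unadjusted p under 0.05, and DESeq2 called 0), and their median was 0.08. None of 31 major sperm protein genes passed it either (5 at an unadjusted p under 0.05, 0 by DESeq2), with a median of -0.15 and summed levels of 22900, 24800 and 25000 CPM in the mutants and 27500, 28500 and 24200 CPM in the controls. Among spermatogenesis spe and fer genes 1 of 21 was lower, the transcription factor spe-44, at -0.63 (SE 0.16). The same holds for 1 of 17 stem cell and meiotic entry regulators, fog-3, a promoter of sperm fate, with 1.56, 2.18 and 2.49 CPM, against 4.68, 4.28 and 3.59 CPM (change -0.95, SE 0.20). The call of spe-44 was lost without mutant library A or B or control library A or B, with an edgeR adjusted p of up to 0.125, while that of fog-3 was kept. Germ granule proteins had 1 of 19 higher, a count of 0 without mutant library B, control library A or control library B and 4 without control library C. B-type cyclins cyb-2.1 and cyb-2.2, which act in dividing germ cells and embryos, rose by 0.68 and 0.69, and cyb-2.1 had an edgeR adjusted p of 0.0643 without mutant library A, 0.0523 without mutant library B and 0.0581 without control library B.

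**Figure D4:**
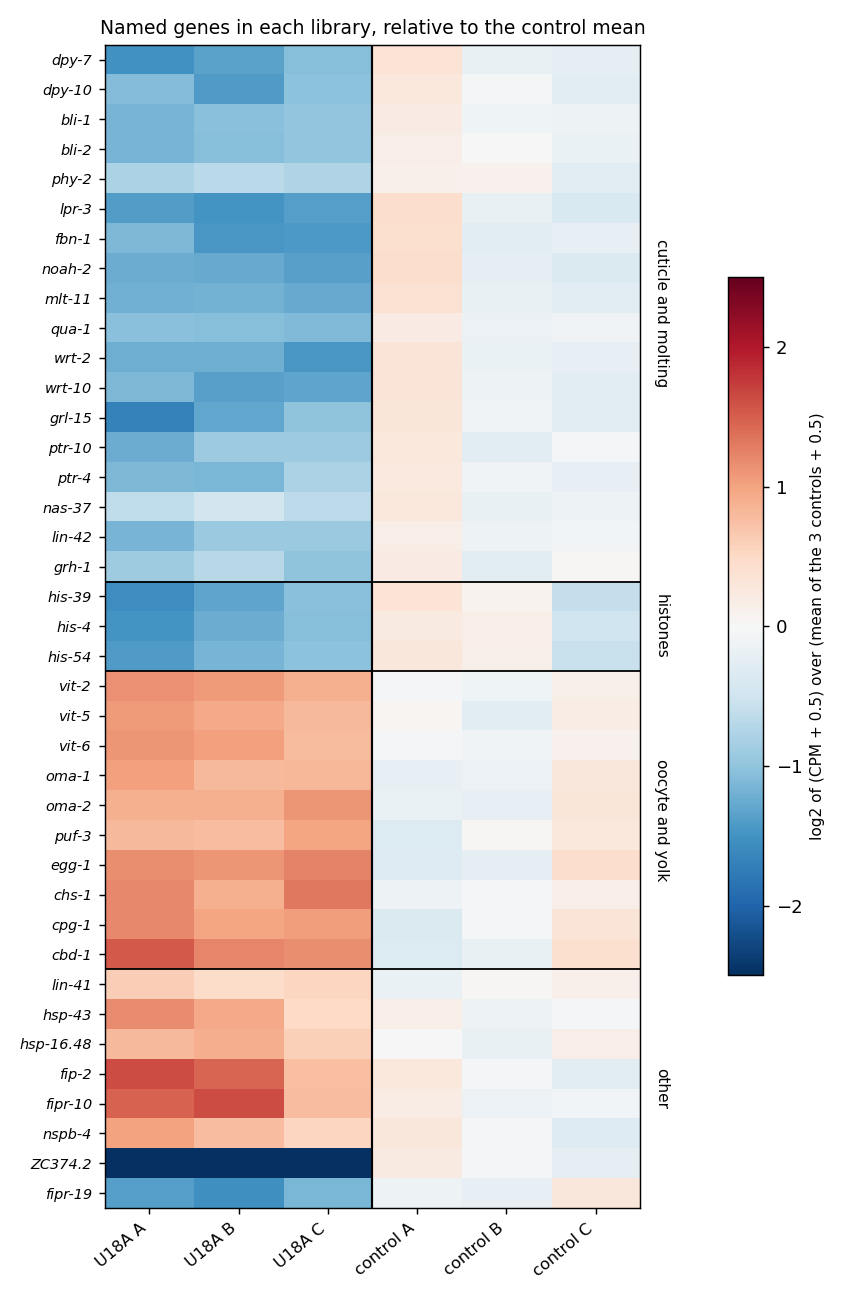
Level of 39 named genes in each library as the log2 of CPM plus 0.5 over the mean of the 3 control libraries plus 0.5, mutants left of the line and controls right of it, with the color scale ending at -2.5 and 2.5. Every mutant column is blue for the cuticle, molting and histone genes and red for the yolk and oocyte genes, and ZC374.2 lies beyond the scale.

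The small epidermal peptides of the fip, fipr and cnc families, which respond to wounding and infection of the skin, moved in both directions, with 12 of 31 higher and 10 lower. The shares were 38.7% and 32.3%, against 4.11% and 6.75% of all genes. Position again went with direction, in a division chosen after the values were seen. All 12 higher genes lie on chromosome V between 9067978 (fip-2) and 12365869 (fipr-2), where cnc-10 did not pass the test, at 0.42. cnc-3 and cnc-4 elsewhere on V were lower, as were fip-6 on chromosome I and fip-5 on X. The 6 genes tested on chromosomes III and IV other than fipr-17 were also lower. fipr-10 had 10.3, 11.4 and 6.11 CPM in the mutants, against 3.91, 2.98 and 3.19 CPM in the controls, a change of 1.46 (SE 0.21, edgeR adjusted p = 0.000408). fipr-19, on chromosome III at 7458815 to 7458946, had 0.556, 0.451 and 0.735 CPM, against 2.00, 1.89 and 2.82 CPM, a change of -1.89 (SE 0.30). The lower genes on chromosomes III and IV are sparse, at means of up to 2.24 CPM in the controls. Elsewhere the control means of the lower genes were 15.9 CPM for cnc-4, 9.37 for fip-5, 4.7 for fip-6 and 4.4 for cnc-3. A filter of at least 10 counts in every library left 4 lower genes of the family, as against 5 without mutant library B.

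The nspb peptides, one of the nematode-specific peptide families, had 8 of 12 higher, with a median of 0.70. nspb-1, nspb-2 and nspb-4 lie near each other on chromosome IV, with equal coding lengths and similar counts. Their calls may therefore not be independent. nspb-4 had 9.01, 7.58 and 6.39 CPM in the mutants, against 5.30, 4.14 and 3.28 CPM in the controls, a change of 0.85 (SE 0.18, edgeR adjusted p = 0.00723). nspc-4 went the other way, with 42.8, 35.1 and 31.6 CPM, against 86.0, 65.5 and 67.7 CPM, a change of -1.01 (SE 0.12). Over nspa to nspe together, 10 of 55 were higher, a count of 5 without mutant library A, 3 without mutant library B, 5 without control library C and 21 with a replicate block.

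Heat shock proteins had 7 of 20 higher, 35% against 4.11% of all genes. All 7 were small chaperones: hsp-43 and the 6 hsp-16 genes. hsp-43 had 142, 120 and 87.2 CPM in the mutants, against 69.3, 56.8 and 59.8 CPM in the controls, a change of 0.90 (SE 0.14, edgeR adjusted p = 0.000599). hsp-16.48, which shares counts with its copy hsp-16.49, had 535, 574 and 461 CPM, against 303, 270 and 345 CPM, a change of 0.77 (SE 0.10). hsp-16.1 likewise shares counts with hsp-16.11, so the 7 calls are not independent. The larger chaperones hsp-1, hsp-4, hsp-6 and hsp-60 did not pass the test, at 0.09, 0.07, 0.14 and 0.04. In a fit over all 12 libraries 1 of the 7 calls was left.

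Metabolic and detoxification families gave mixed directions, where 4.11% of all genes were higher and 6.75% lower. Among acyl-CoA synthetases and dehydrogenases 4 of 35 were higher and 5 lower; the higher count was 2 without mutant library B or control library A or C, and the lower count 3 without mutant library B or C or control library A or B. acs-3 had 4.90, 6.98 and 7.30 CPM in the mutants, against 15, 15.5 and 15 CPM in the controls, a change of -1.21 (SE 0.13, edgeR adjusted p = 6.46e-05), and acs-20, an epidermal fatty acid transport protein of the cuticle barrier, changed by -0.81 (SE 0.08). Fatty acid synthesis and elongation genes had 1 of 19 higher and 1 lower, 5.26% each. pod-2, the acetyl-CoA carboxylase that starts fatty acid synthesis, rose by 0.43 (SE 0.09), and elo-4 fell, at -0.78 (SE 0.14). The most abundant member, fasn-1, did not pass the test, at 0.03. UDP-glucuronosyltransferases had 6 of 52 higher and 10 lower, with ugt-4 at -1.40 (SE 0.21). Without mutant library B these counts were 0 and 5, without control library B 2 and 6, and the higher count was 3 without mutant library A or control library A. Glutathione S-transferases had 4 of 35 higher, led by gst-24, with 22.7, 22.2 and 20.8 CPM, against 9.83, 9.89 and 13.4 CPM (change 0.98, SE 0.12), and the count was 2 without mutant library A, mutant library B or control library A.

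Larger families of secreted and regulatory proteins had calls in both directions. Over all genes, 4.11% were higher and 6.75% lower. C-type lectins had 9 of 105 higher and 9 lower, 8.57% each, among them clec-180 at -1.06 (SE 0.13) and clec-247 at -1.44 (SE 0.20). Without mutant library B the lectin counts were 3 and 4, without control library B 4 and 5, and the higher count was 5 without control library A. Nuclear hormone receptors had 1 of 161 higher and 9 lower, 0.621% and 5.59%, both under the shares over all genes. nhr-74 changed by -1.14 (SE 0.19). The receptor count lower was 5 without mutant library A and 14 without control library C. The receptor count higher was 0 without mutant library B or C or control library A or B, 2 without mutant library A and 3 without control library C. F-box and MATH genes had 13 of 171 higher and 2 lower, 7.6% and 1.17%, with math-14 at 10.7 ± 0.279 CPM in the mutants and 5.34 ± 0.765 CPM in the controls (SD, n = 3 each). The higher count for F-box and MATH genes was 4 without mutant library B or control library B, 5 without mutant library C, 6 without mutant library A and 7 without control library A. Neuropeptide genes had 4 of 66 higher and 4 lower, 6.06% each, close to the shares over all genes. In that list the antimicrobial neuropeptide-like genes of the epidermis nlp-28 and nlp-29 rose by 0.78 and 0.63, while nlp-34 of the same cluster fell by 0.95.

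Among 16 tested heterochronic genes, lin-41 was the one that rose, and lin-42, mab-3 and alg-1 fell. alg-1, the Argonaute that carries let-7, had 43.3, 38.5 and 37.8 CPM in the mutants, against 53.6, 49.1 and 48.3 CPM in the controls, a change of -0.34 (SE 0.08, edgeR adjusted p = 0.0154). Its adjusted p was 0.111 without mutant library B, 0.0558 without mutant library C and 0.0571 without control library A. mab-3 (change -0.98) lost its call under DESeq2, after thinning, and without mutant library A or C or control library A or C. Seam cells are the lateral epidermal cells that let-7 stops from dividing. Of 10 genes listed as seam-cell regulators and fusogens, 4 were lower: nhr-73, nhr-74, the fusogen aff-1 and bli-6. bli-6 is a collagen kept in this list, not a regulator or fusogen. aff-1 had 1.45, 1.05 and 1.13 CPM, against 2.39, 2.26 and 2.27 CPM, a change of -0.96 (SE 0.22), with an adjusted p of 0.0703 without mutant library B and 0.173 after thinning to equal depth. nhr-73 has the same counts within 5% or 3 counts as nhr-245, a separate gene on the same chromosome, so the split of reads between them is uncertain.

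Markers of other tissues showed how general the changes were, beside 4.11% higher and 6.75% lower over all genes. None of 20 body wall muscle markers passed edgeR's threshold (0 at an unadjusted p under 0.05, 0 by DESeq2), nor did any of 19 neuronal markers (1 and 0). Their summed levels were 24200, 20200 and 17400 CPM in the mutants and 24100, 20500 and 19200 CPM in the controls for muscle, and 339, 306 and 293 CPM and 337, 316 and 288 CPM for neurons. Intestine markers, from the tissue that makes yolk, had 2 of 16 higher and 2 lower (1 lower without mutant library A or B or control library A or C), and summed to 9910, 8620 and 8570 CPM, against 8820, 8150 and 7930 CPM. Epidermis markers had 1 of 14 higher, col-19, and 4 lower, the lower ones being dpy-7, che-14, bus-8 and vab-19. dpy-7 is also counted above as a furrow collagen. The epidermis list summed to 2680, 2280 and 1880 CPM, against 2320, 2030 and 1930 CPM, so the groups overlapped. Its most abundant member, vab-10, did not pass the test, at 0.16. The epidermal transcription factors elt-1, elt-3 and lin-26 did not pass the test, at -0.28, 0.04 and -0.26. Pharynx markers had 2 of 12 higher, a count of 0 without mutant library A or B or control library B or C, and summed to 551, 475 and 369 CPM, against 429, 375 and 339 CPM. Somatic gonad markers had 1 of 16 higher, the innexin inx-8 at 0.54 (SE 0.10). Whether the share of any tissue in the animals moved with the families above was not tested.

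Housekeeping families had few calls. None of 79 cytosolic ribosomal proteins passed edgeR's threshold (10 at an unadjusted p under 0.05, 1 by DESeq2), and none of 63 mitochondrial ribosomal proteins (0 and 0), 30 translation factors (6 and 0), 32 proteasome subunits (10 and 0) or 32 oxidative phosphorylation subunits (0 and 0) did. Cytosolic ribosomal proteins summed to 128000, 128000 and 124000 CPM in the mutants, against 118000, 120000 and 115000 CPM in the controls. That sum did not overlap between groups, although no single gene passed, and the median change was 0.09.

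A census of gene classes, named by the letters of the gene symbol, covered 144 classes with at least 8 genes tested. In 8 of them at least 50% of the genes were called in 1 direction: wrt, ptr, dpy, fkb and grl lower, and nspb, puf and fipr higher. The shares were 77.8% for wrt, 66.7% for nspb, 62.5% for puf, 57.1% for ptr and 54.2% for dpy. They were 50% for fipr, fkb and grl. Of 22 fipr genes 11 were higher but 5 lower, and of 12 grl genes 6 were lower and 1 higher. No member was called by edgeR in 55 classes. With 4.11% of all genes higher and 6.75% lower, a class of few genes can lack a call. Whether 55 is an unusual number was not tested.

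Changes of the same families in the U13A pair, whose libraries and control are separate, were compared gene by gene with a test of the difference between the 2 changes. The pairs differ in let-7 allele, lin-41 allele and background strain, which cannot be told apart here. Of 13597 genes tested, 551 had a lower change in the U18A pair and 208 a higher one, 4.05% and 1.53%. Cuticle and molting families varied against that background. The difference was lower in 11 of 14 molting genes, 8 of 13 precuticle genes, 5 of 6 furrow collagens, 5 of 7 lpr genes and 10 of 36 hedgehog-related genes. It was lower in 1 of 27 astacins and 1 of 20 cuticlins, and for the abu and pqn proteins 1 of 71 had a lower and 4 a higher difference. Median changes were -1.21 in the U18A pair and 0.86 in the U13A pair for precuticle genes, and -1.18 and 0.83 for furrow collagens. Tested alone, the U13A change passed edgeR's threshold for fbn-1, dpy-2, dpy-7 and dpy-10. It did not for lpr-1, lpr-3, let-4, noah-2, mlt-11, dpy-3 or dpy-8. Their edgeR adjusted p lay between 0.0761 for noah-2 and 0.997 for dpy-3. fbn-1, for example, changed by -1.36 in the U18A pair and 2.3 in the U13A pair, a difference of -3.66 (edgeR adjusted p = 0.000173). For the numbered collagens 4 had a lower and 3 a higher difference.

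For the yolk genes the medians were 0.94 in the U18A pair and 0.57 in the U13A pair, and none of the 6 differed by edgeR (2 at an unadjusted p under 0.05). Oocyte RNA-binding regulators likewise had none of 23 that differed (11 at an unadjusted p under 0.05). Eggshell and oocyte surface genes had 1 of 16, pqn-74, at -0.08 in the U18A pair and -0.93 in the U13A pair. Histones had none of 72 that differed (2 at an unadjusted p under 0.05), with medians on chromosomes V and X of -0.70 in the U18A pair and -0.45 in the U13A pair. A difference that misses the threshold does not show that the changes were alike. No other tool was run on the difference.

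**Figure D5:**
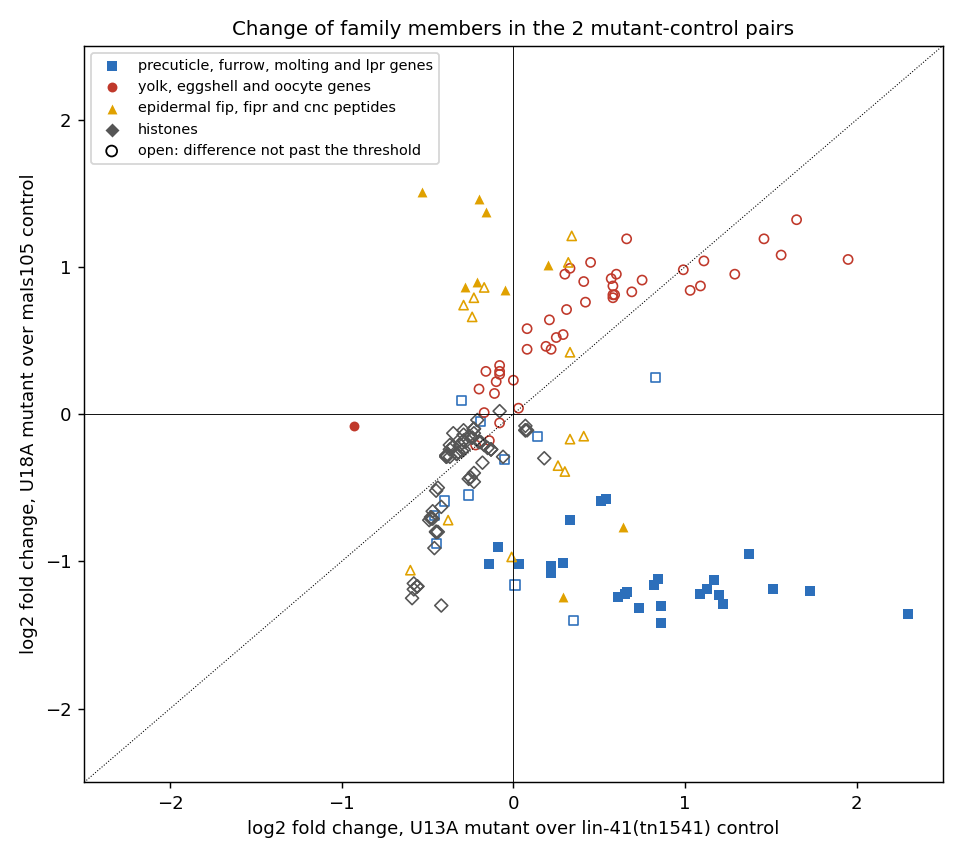
Log2 fold change of family members in the U18A pair (vertical axis, U18A mutant over maIs105 control) and the U13A pair (horizontal axis, U13A mutant over lin-41(tn1541) control), 1 point per gene, filled where the difference between the pairs had an adjusted p under 0.05. Most precuticle, furrow, molting and lpr genes lie below 0 in the U18A pair and above 0 in the U13A pair, while the yolk, eggshell and oocyte genes with the largest changes are positive in both. Position alone does not show that a change passed the threshold in either pair.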

How the data were processed

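The deposited values were whole-number footprint counts per gene, 1 table for the U18A pair and 1 for the U13A pair; cutadapt 1.9, Bowtie2 2.3.4.3 and the WBcel235 build are named in the submitters' processing notes, while the counter and its use of strand and of multiply mapped reads are not given in the sources used here. Of 46722 rows, 28430 were 0 in all 6 libraries. Groups came from the strain labels. The 6 libraries were fitted with edgeR 4.0.16 in R 4.3.3 (filterByExpr, TMM scaling, robust quasi-likelihood test, Benjamini-Hochberg adjustment, threshold 0.05); SE is the size of the log2 fold change over the square root of F. The difference between pairs was a contrast of 4 group means over 12 libraries. CPM used TMM library sizes. Both fits were run on simulated data, the difference fit with the same dispersion for every gene. That run therefore does not show how the difference fit performs at the gene-by-gene spread of these data. Gene positions came from Ensembl release 115, or RefSeq where a symbol is repeated. Named genes were lin-41, the 15 largest changes in each direction (mean of at least 50 counts, no overlap of CPM), up to 4 per list and its most abundant member, and 3 per leading class; other genes were named after their values were seen. Members and lists were chosen with earlier results of these data known. DESeq2 1.42.0, other scalings, filters, a replicate block, thinned counts, a fit of all 12 libraries and leaving out each library were the alternatives. Replicate letters were used to pair the samples only in the replicate block, and whether they mark real pairs is not known.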

Additional observations from a re-analysis of the deposited data

Results flagged for a closer look

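Each gene below changed by a different amount in the U18A pair (U18A mutant over maIs105 control) and the U13A pair (U13A mutant over lin-41(tn1541) control), by edgeR's test of that difference at an adjusted p under 0.05. Of 189 genes examined, 66 differed, 51 lower and 15 higher in the U18A pair. Values are log2 differences, U18A change minus U13A change. The let-7 allele, lin-41 allele and background strain differ together between the pairs and cannot be told apart.

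Among precuticle, lipocalin-related and molting genes the differences were -2.29 for lpr-3, -3.66 for fbn-1, -2.52 for noah-2, -1.87 for mlt-11, -1.31 for qua-1, -1.26 for mlt-9, -0.89 for mlt-8, -1.05 for lrp-1, -1.13 for nas-37, -2.05 for lpr-5, -1.87 for lpr-4 and -2.32 for lpr-1. fbn-1 changed by -1.36 in the U18A pair and 2.3 in the U13A pair. Among collagens, other shape genes, cuticlins and collagen enzymes they were -1.9 for dpy-1, -1.57 for col-54, -3.48 for dpy-6, -1.97 for dpy-2, -2.16 for dpy-7, -1.86 for dpy-8, -1.99 for dpy-9, -2.33 for dpy-10, -1.3 for bli-1, -1.01 for bli-2, -2.78 for col-176, -0.94 for phy-2, -0.95 for dpy-11, -2.14 for cutl-14, -1.03 for fkb-3 and -0.98 for fkb-4. dpy-6, a mucin-like cuticle protein, changed by -1.61 in the U18A pair and 1.86 in the U13A pair. The U13A change alone had an edgeR adjusted p of 0.101.

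Hedgehog-related and patched-related genes had differences of -1.89 for wrt-2, -1.95 for wrt-10, -1.69 for wrt-1, -1.49 for grl-15, -1.24 for grl-7, -1.1 for grl-5, -3.29 for ptr-10 and -1.3 for ptr-4. ptr-10 changed by -1.13 in the U18A pair and 2.15 in the U13A pair. Regulators and epidermal genes had -0.96 for lin-42, -1.4 for grh-1, -1.05 for che-14, -0.81 for bus-8, -1.63 for nhr-73, -1.7 for nhr-74, -1.81 for aff-1, -1.12 for blmp-1 and -1.65 for nhr-245. The other lower differences were -2.97 for Y41G9A.5, -1.37 for nspc-4, -2.16 for clec-247, -1.79 for clec-180, -1.57 for fbxa-72 and -1.55 for cnc-3.

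Higher differences were 4.28 for F46G11.6, 3.16 for T12G3.4, 2.04 for fip-2, 1.67 for fipr-10, 1.53 for fipr-11, 1.33 for nspb-4, 1.55 for nspb-2, 1.89 for irg-1, 1.19 for math-14, 1.63 for scl-22, 0.54 for ifb-2, 0.66 for ifc-2, 1.4 for phat-3, 0.86 for pqn-74 and 0.81 for fipr-2. F46G11.6 changed by 4.1 in the U18A pair and -0.18 in the U13A pair, and irg-1 by 0.86 in the U18A pair and -1.03 in the U13A pair. nhr-73 and nhr-245 share counts and are not independent.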

How the results depend on the processing

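Leaving out 1 library gave between 347 and 627 genes higher and between 570 and 1001 genes lower, against 559 and 919 with all 6; the lowest counts, 347 and 570, came without mutant library B, and the highest without mutant library C and control library C. The other alternatives kept both counts within 1.5 times, at 400 to 685 genes higher and 750 to 1018 lower. The number of genes that differed between pairs was 759, and 542 to 775 with 1 of 12 libraries left out, an alternative chosen after seeing the data. With a replicate block, 685 genes were higher, 1016 lower and 638 different between pairs. Same-letter libraries had correlations of deviations of 0.137, -0.006 and 0.129. Mutant A against control C gave -0.134, and mutant C against control A gave -0.138. These values do not settle whether the letters pair the samples, and the main fit left them unpaired. Of 189 genes examined, 49 lost a call under at least 1 alternative, 8 that were not called changed sign, 1, fipr-17, gained a call, and the rest kept direction and call. In a fit over all 12 libraries the edgeR adjusted p was 0.118 for grl-16, 0.0912 for nas-37, 0.0757 for perm-4, 0.0858 for nlp-29 and 0.148 for hsp-16.48. After thinning, the log2 change was 0.02 for wrt-5, 0.02 for nhr-23, -0.19 for pos-1 and -0.03 for elt-3, and with at least 10 counts in every library it was 0 for pos-1, each turned in sign from a value near 0; the cause was not tested. With 1 library left out the change ranged between -0.13 and 0.12 for wrt-5, -0.01 and 0.23 for mlt-7, -0.17 and 0.01 for nhr-23, -0.2 and 0.02 for pqn-74, -0.08 and 0.23 for pos-1, -0.16 and 0 for spn-4, -0.01 and 0.12 for hsp-4, and -0.13 and 0.18 for elt-3. Of 77 list counts, 54 moved by over 1.5 times under at least 1 alternative. Shallow mutant libraries limit genes of a few counts, such as the fipr genes of chromosomes III and IV.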

Other observations

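The 2 intestine markers that rose, of 16 tested, both code for intermediate filament proteins, while a further filament gene in that list, ifd-2, did not pass the test, at -0.07. ifc-2 averaged 376 ± 16.9 CPM in the mutants and 277 ± 6.82 CPM in the controls (SD, n = 3 each), a log2 change of 0.44 (SE 0.07, edgeR adjusted p = 0.00083), and ifb-2 had 716, 704 and 660 CPM, against 541, 521 and 544 CPM, a change of 0.37 (SE 0.07). The groups did not overlap for either gene. The intestinal metallothionein mtl-2 and the cathepsin B-like protease cpr-6 were lower, at -0.44 and -0.37, and mtl-2 lost its call without mutant library A or B or control library A or C, with an edgeR adjusted p of up to 0.109.

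Transthyretin-like genes, a nematode family of secreted proteins, had 6 of 53 higher and none lower by edgeR. The share higher was 11.3%, against 4.11% of all genes. ttr-42 had 11, 9.46 and 7.69 CPM in the mutants, against 4.53, 3.49 and 5.4 CPM in the controls, a change of 1.06 (SE 0.18). The family count was 3 without mutant library A, 1 without mutant library B and 10 without mutant library C.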
